A study of Homo sapiens
Mus musculus and Homo sapiens with 12 samples.

Results

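Human transcript levels in 6 heterokaryon libraries were compared with those in 1 homokaryon library, all 7 taken from a fusion series of 12 samples. The heterokaryons were D3 mouse embryonic stem cells fused with MRC5 human fibroblasts, an established line from lung. Per the labels these are transient cells in which the mouse and human nuclei stay separate. They were collected at day 1, day 2 and day 3, with 2 libraries per day, and sorted by flow cytometry before polyA RNA was sequenced. The homokaryon library came from human fibroblasts fused with each other. Its labels name neither the fibroblast line nor the time after fusion. The libraries were chosen by title, and the comparison sets fusion with a stem cell against fusion between fibroblasts. The homokaryon group has 1 library, so no replicate check exists on that side, and its own deviations enter each of the 6 differences. Co-cultures of the same mouse and human cells without fusion (2 libraries) and unfused human fibroblasts (1 of the libraries, replicate 2) are given beside many of the named genes.

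In a heterokaryon the cytoplasm is shared while each nucleus keeps its own chromosomes, so factors from the stem cell can reach the fibroblast genome without cell division. A homokaryon undergoes the same membrane fusion without a stem cell partner. Lung fibroblasts such as MRC5 are known for secreting collagens and other matrix proteins, and for responding to interferons, bradykinin and growth factors of the TGF beta family.

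Levels are given in RPKM, reads scaled to transcript length and library size. This unit was inferred from the values. The tables end at different accessions, and 4672 of 18750 coding genes could be compared in all 7 libraries. A gene that a table does not list before its end was taken as 0. Such a 0 can also be a failed assignment, because 16 of 62 covered ribosomal protein genes are listed at 0 in all 7 libraries. Between 1853 and 2625 of the compared genes stood at 0 in a heterokaryon library and 2420 in the homokaryon library. Read totals are unknown. The 6 covered fibroblast markers summed to between 4268 and 7052 RPKM in heterokaryons and 14917 RPKM in the homokaryon library. Within that list COL1A1, COL1A2, COL3A1, VIM and PDGFRB were present in all 7 libraries and LUM was at or near 0. The largest parts of the homokaryon sum were COL1A1 (5487 RPKM), COL1A2 (5054 RPKM) and COL3A1 (2251 RPKM). Unfused fibroblasts had 2456, 1304 and 147 RPKM of these 3 collagen chains. VIM was at 1429 to 2063 RPKM in heterokaryons, against 2054 RPKM in the homokaryon library. The 4 endothelial markers summed to between 0.145 and 2.22 RPKM, against 0.520 RPKM in the homokaryon library. TEK, an endothelial receptor outside that marker set, was at 1.03 to 3.49 RPKM in heterokaryons, against 24.3 RPKM. The 2 covered epithelial markers summed to between 1.80 and 364 RPKM, against 13.5 RPKM, and the 3 covered haematopoietic ones to between 0.149 and 13.7 RPKM, against 9.06 RPKM. The part of such cells in the results was not tested.

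A gene was called higher or lower where all 6 heterokaryon values lay on 1 side of the homokaryon value and the mean difference reached 2-fold on the scale of log2(RPKM + 1). Of 2062 genes with an average of at least 1 RPKM, 305 were higher (14.8%) and 290 were lower (14.1%), together 28.9%. All 6 libraries lay above the homokaryon value in 471 genes (22.8%) and below it in 403 genes (19.5%). The median log2 difference over all tested genes was 0.15. The median absolute difference between heterokaryon replicates was 0.51 on the log2 scale, and that between heterokaryons and homokaryon was 0.74. Replicates were closest at day 2 (median 0.36), and less so at day 1 (0.57) and day 3 (0.64).

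**Figure D1:**
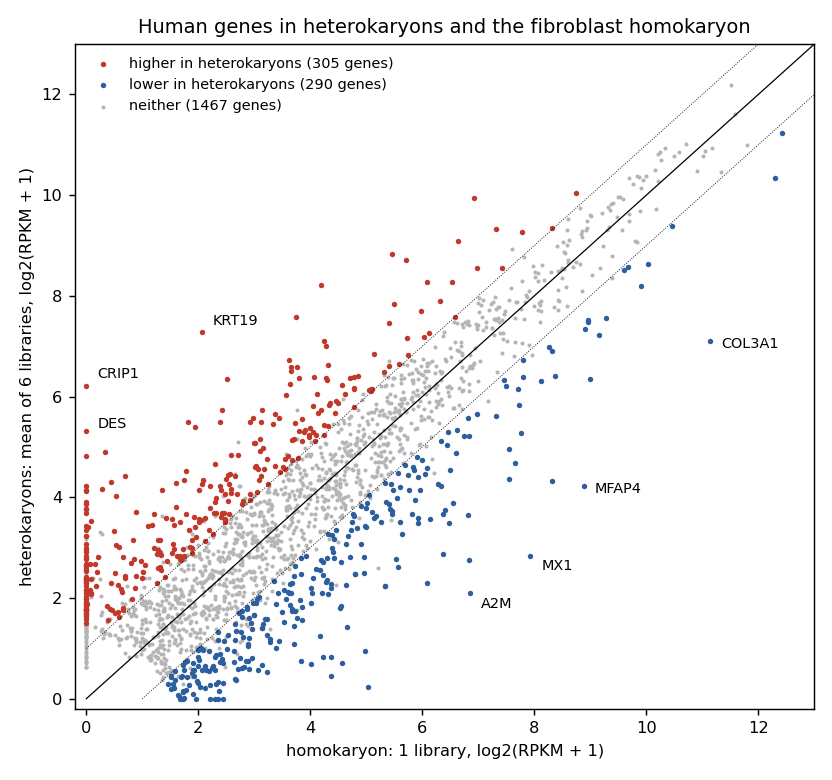
Each point is 1 of 2062 tested genes, with the mean log2(RPKM + 1) of the 6 heterokaryon libraries on the vertical axis and the value of the homokaryon library on the horizontal axis; the solid line marks equal levels and dotted lines mark a 2-fold difference. The 305 higher genes (red) include a column at 0 in the homokaryon library, and the 290 lower genes (blue) include COL3A1, MX1, MFAP4 and A2M far below the line.

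With limma, which takes the spread from the replicate pairs and assumes that the lone homokaryon library varies like them, 35 genes passed as higher (1.70%) and 27 as lower (1.31%) at a Benjamini-Hochberg adjusted p under 0.05. These 62 genes (3.01%) all met the 2-fold rule too. Unadjusted p was under 0.05 for 434 genes. Among the genes that passed were CRIP1 (log2 difference 6.22, SE 0.36, adjusted p = 0.00806), KRT19 (5.22, SE 0.37, adjusted p = 0.00847), SDC4 (3.38, SE 0.24, adjusted p = 0.00847) and CRYAB (4.02, SE 0.35, adjusted p = 0.00953). On the lower side were COL3A1 (-4.02, SE 0.35, adjusted p = 0.00953), A2M (-4.76, SE 0.63, adjusted p = 0.0233), MFAP4 (-4.66, SE 0.57, adjusted p = 0.0229) and MX1 (-5.09, SE 0.79, adjusted p = 0.0359). Without day 2 replicate 1 or day 2 replicate 2 no gene passed (smallest adjusted p 0.102 and 0.0965), and 328 and 331 genes had an unadjusted p under 0.05. Without day 3 replicate 1 or replicate 2 the count was 101 and 77, and without day 1 replicate 1 or replicate 2 it was 19 and 20. None of the 62 genes passed in all 6 of these fits, so the genes below are described by their values and the 2-fold rule.

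The genes that stood furthest above the homokaryon library were led by 2 that it lists at 0. CRIP1, a small LIM domain protein, was at 61.6 and 43.1 RPKM at day 1, 114 and 131 RPKM at day 2, and 75.3 and 52.2 RPKM at day 3, against 0 in the homokaryon library. DES, the muscle intermediate filament desmin, was at 17.5 and 33.6 RPKM at day 1, 55.1 and 49.9 RPKM at day 2, and 36.7 and 55.8 RPKM at day 3, against 0. Neither gene exceeded 0.985 RPKM in co-culture or unfused fibroblasts, so the heterokaryon values stood apart from every other library used. KRT19, a keratin of simple epithelia, was at 86.6 and 58.4 RPKM at day 1, 259 and 329 RPKM at day 2, and 221 and 144 RPKM at day 3, against 3.18 RPKM in the homokaryon library. Its heterokaryon mean was 57.5 times the homokaryon value, and co-culture (5.94 and 6.29 RPKM) and unfused fibroblasts (6.95 RPKM) were close to the homokaryon level. CRYAB, a small heat shock protein, ranged over 164 to 514 RPKM in heterokaryons (median 307), against 17.2 RPKM in the homokaryon library. Co-culture had 50.1 and 47.6 RPKM of CRYAB and unfused fibroblasts 71.0 RPKM.

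UBE2L3, a ubiquitin-conjugating enzyme, was at 19.0 to 43.0 RPKM in heterokaryons (median 28.6), against 0.266 RPKM in the homokaryon library. It was also high in co-culture, at 63.5 and 39.6 RPKM, and at 0.240 RPKM in unfused fibroblasts. For this gene the libraries that hold mouse RNA were all high and those without it were near 0, and the part of mouse RNA in the result was not tested. MYBL2, a transcription factor of proliferating cells, was at 11.3 to 24.6 RPKM (median 21.2), against 0.365 RPKM in the homokaryon library, 0 and 0.765 RPKM in co-culture and 13.9 RPKM in unfused fibroblasts. Here unfused fibroblasts reached the heterokaryon range and co-culture did not. SDC4, the heparan sulphate proteoglycan syndecan 4, was at 303 to 697 RPKM (median 462), against 42.9 RPKM in the homokaryon library. PNP, a purine salvage enzyme, was at 53.8 to 108 RPKM (median 80.5), against 4.67 RPKM. Both stood above co-culture (SDC4 83.6 and 82.6 RPKM, PNP 24.9 and 23.8 RPKM) and unfused fibroblasts (67.8 and 32.1 RPKM) as well.

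LSP1, SLC37A4 and RPS6KA1 were also among these 12 genes. LSP1, an actin-binding protein first described in lymphocytes, was at 10.6 to 42.6 RPKM (median 19.9), against 0.619 RPKM in the homokaryon library. The glucose-6-phosphate transporter SLC37A4 was at 20.6 to 85.2 RPKM (median 42.3), against 2.54 RPKM, and the kinase RPS6KA1 was at 21.9 to 66.9 RPKM (median 41.7), against 2.82 RPKM. None of the 3 reached its lowest heterokaryon value in co-culture or unfused fibroblasts.

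The genes that stood furthest below the homokaryon library included 4 interferon-induced genes, matrix genes, a bradykinin receptor and a histone. A2M, the protease inhibitor alpha-2-macroglobulin, was at 1.74 and 4.77 RPKM at day 1, 2.67 and 2.56 RPKM at day 2, and 4.75 and 4.08 RPKM at day 3, against 115 RPKM in the homokaryon library. Unfused fibroblasts had 5.21 RPKM and co-culture 18.0 and 24.0 RPKM, so the homokaryon value was the high one. COL3A1, a fibrillar collagen chain, was at 159 and 252 RPKM at day 1, 73.4 and 111 RPKM at day 2, and 139 and 148 RPKM at day 3, against 2251 RPKM in the homokaryon library. The homokaryon value was 15.3 times the heterokaryon mean, while co-culture (199 and 239 RPKM) and unfused fibroblasts (147 RPKM) lay within the heterokaryon range. MFAP4, a glycoprotein of elastic microfibrils, was at 8.04 to 57.0 RPKM (median 16.3), against 471 RPKM in the homokaryon library, 84.5 and 75.6 RPKM in co-culture and 75.4 RPKM in unfused fibroblasts. For MFAP4 the heterokaryons were the lowest and the homokaryon library the highest of the 4 kinds of library.

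BDKRB2, a bradykinin receptor, was at 4.21 to 34.4 RPKM (median 24.6), against 316 RPKM in the homokaryon library. CTSK, a collagen-degrading cysteine protease, was at 14.5 to 28.6 RPKM (median 17.6), against 185 RPKM. Co-culture and unfused fibroblasts stood far closer to the heterokaryons, at 46.6, 36.7 and 10.2 RPKM for BDKRB2 and 40.0, 26.7 and 21.3 RPKM for CTSK. C14orf132 was at 2.28 to 6.17 RPKM, against 66.5 RPKM, and HSD17B2, a steroid dehydrogenase, was at 0 to 1.94 RPKM, against 19.7 RPKM. For HSD17B2 co-culture replicate 2 reached 20.2 RPKM, the homokaryon level. The histone gene H4C8 was at 1.54 RPKM in day 1 replicate 2 and 0 in the 5 other heterokaryon libraries, against 31.8 RPKM in the homokaryon library. The antiviral genes MX1, IFIT1, MX2 and CXCL10 complete the 12.

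**Figure D2:**
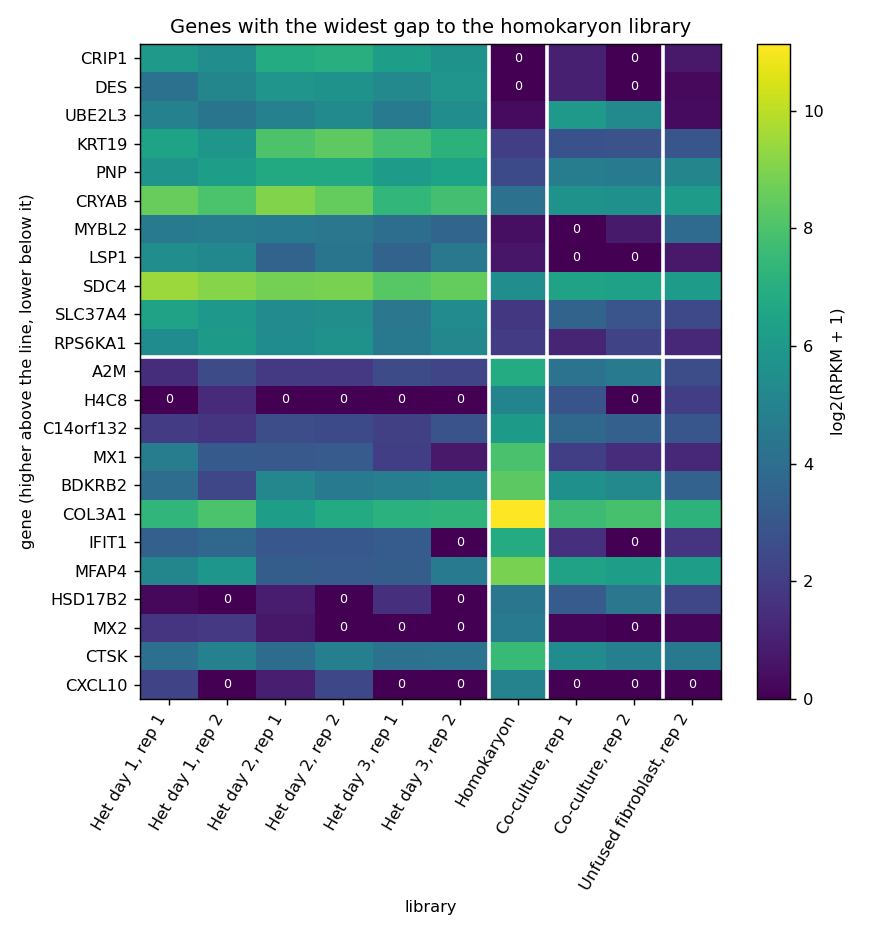
Log2(RPKM + 1) of 11 higher and 12 lower genes whose nearest heterokaryon library lies furthest from the homokaryon library, with 1 row per gene and 1 column per library; a 0 marks a gene the library does not list. In the lower rows the homokaryon column is the brightest (COL3A1 2251 RPKM, MX1 243 RPKM), except that co-culture replicate 2 matches it for HSD17B2. Within each upper row the 6 heterokaryon cells are brighter than the homokaryon cell.

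Gene lists were read against the shares over all tested genes, 14.8% higher and 14.1% lower, with no test of a list. The filter on low values weighs the lone homokaryon value as much as the heterokaryon mean. Genes high on a single side could therefore enter with their direction set by that side, so the list counts are descriptions only. Lists with many lower members were interferon response (9 of 12), fibroblast identity (5 of 8), MHC class I (3 of 5), lung fibroblast regulators and receptors (8 of 15) and interstitial matrix (13 of 25). Lists with many higher members included mitosis and G2 (9 of 11), DNA replication (9 of 15), heat shock (4 of 8) and epithelial (4 of 9). DNA replication and heat shock also had 1 lower member each. Of 24 proteasome subunits none was called, and of 45 tested ribosomal proteins 1 was higher. These lists kept the sign of their median under quantile normalization, which moved the median over all tested genes to -0.05.

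**Figure D3:**
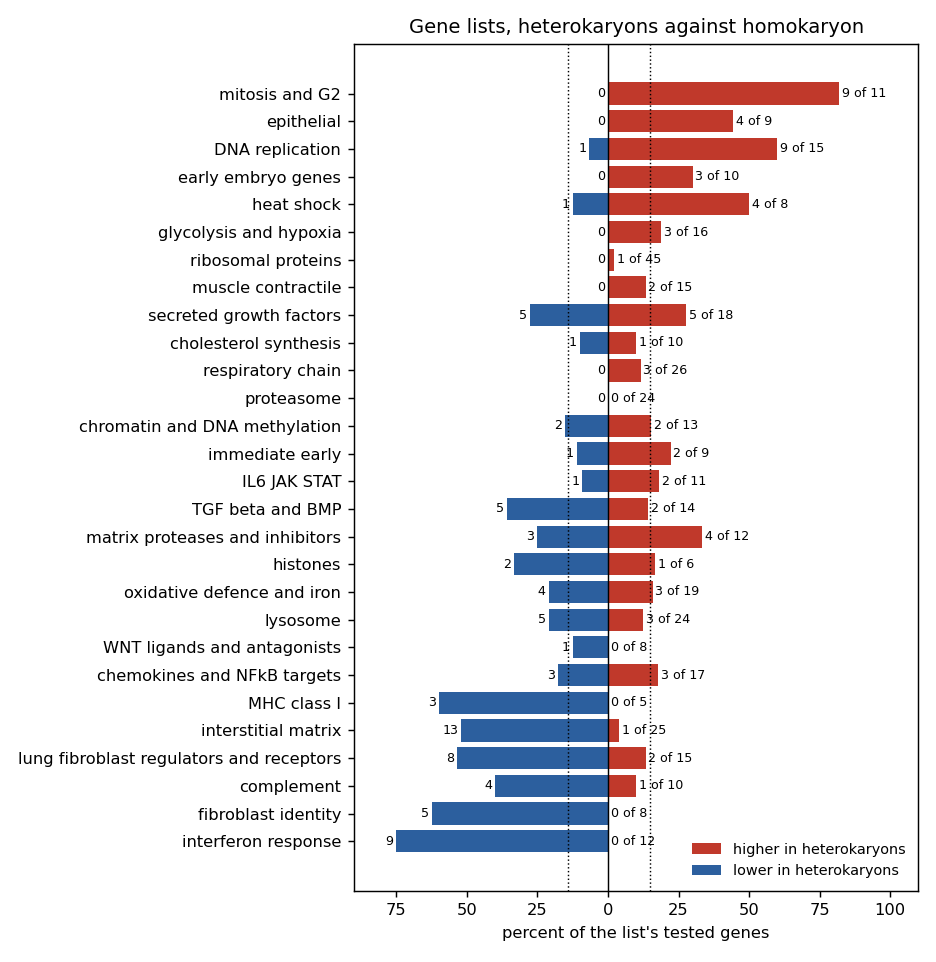
Percent of each list's tested genes that were higher (red, to the right) or lower (blue, to the left) in heterokaryons than in the homokaryon library, for described lists with at least 5 tested genes, ordered by median difference; numbers give counts and dotted lines the shares over all tested genes. Mitosis and G2 has 9 of 11 genes higher, and interferon response has 9 of 12 genes lower.

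Of 25 tested interstitial matrix genes, 13 were lower, 1 was higher and 11 were not called, with a median log2 difference of -1.14. All covered chains of the fibrillar collagens I, III and V were among the lower genes. COL1A1, the main chain of collagen I, was at 1576 to 3000.3 RPKM (median 2799.9) in heterokaryons, against 5487 RPKM in the homokaryon library, and COL1A2 was at 976 to 1936 RPKM (median 1290.0), against 5054 RPKM. After quantile normalization COL1A1 fell short of 2-fold (log2 difference -0.93). For COL1A1, co-culture (2419 and 2428 RPKM) and unfused fibroblasts (2456 RPKM) lay within the heterokaryon range. COL5A2, a chain of collagen V, was at 62.0 to 146 RPKM (median 75.1), against 507 RPKM, and COL5A1 was at 38.9 to 109 RPKM (median 45.8), against 209.7 RPKM. For COL5A2 too, co-culture (118 and 121 RPKM) and unfused fibroblasts (143 RPKM) lay within the heterokaryon range. The fibrillins FBN1 (26.1 to 60.7 RPKM, against 111 RPKM) and FBN2 (13.7 to 27.4 RPKM, against 59.4 RPKM) build the microfibrils of elastic fibres. EFEMP1, a fibulin, was at 8.42 to 24.3 RPKM (median 12.6), against 92.8 RPKM, and co-culture (52.8 and 54.0 RPKM) and unfused fibroblasts (41.1 RPKM) lay between. The laminin chain LAMB1, SPARC, the collagen crosslinker LOX and the proteoglycan FMOD were lower as well. The 1 higher member was FBLN2, another fibulin, at 2.97 to 7.85 RPKM, against 1.02 RPKM. Elastin, collagen IV chains, LAMC1, THBS1, THBS2 and TNC were among the 11 not called, with log2 differences from -1.14 for TNC to 0.91 for THBS2.

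Matrix-remodelling genes did not move as 1 block, with 4 of 12 higher, 3 lower and a median of -0.12. Over all tested genes 14.8% were higher and 14.1% lower. SERPINB2, an inhibitor of plasminogen activators, was at 4.11 to 13.8 RPKM, against 0 in the homokaryon library, with 25.7 and 26.9 RPKM in co-culture and 30.4 RPKM in unfused fibroblasts. Among the tissue inhibitors of metalloproteinases, TIMP3 was at 329 to 1106 RPKM (median 718), against 158 RPKM, and TIMP4 was at 8.12 to 18.9 RPKM (median 14.7), against 0. TIMP2 was lower, at 144 to 221 RPKM (median 176), against 499 RPKM. The stromelysin MMP3 was at 6.96 to 22.4 RPKM, against 30.6 RPKM. TIMP1 (log2 difference -0.24), PLAU (0.00) and its receptor PLAUR (0.02) were not called.

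Among 15 regulators and receptors of lung fibroblasts, 8 were lower, 2 were higher and the median was -1.17. BDKRB1, the inducible bradykinin receptor, was at 5.11 and 4.78 RPKM at day 1, 13.6 and 14.96 RPKM at day 2, and 31.4 and 13.1 RPKM at day 3, against 112 RPKM in the homokaryon library. Co-culture (72.1 and 83.3 RPKM) and unfused fibroblasts (95.3 RPKM) were close to the homokaryon library here, unlike for BDKRB2. The thrombin receptor F2R was at 40.6 to 51.8 RPKM (median 48.8), against 158 RPKM, with 113 and 130.4 RPKM in co-culture and 83.5 RPKM in unfused fibroblasts. S1PR1, a sphingosine-1-phosphate receptor, was at 0 to 2.02 RPKM, against 15.2 RPKM, and the endothelin receptor EDNRA and prostaglandin receptors PTGER2 and PTGER4 were lower at levels of at most 5.53 RPKM in the 7 libraries. The transcription factor SALL1 was at 0 to 10.3 RPKM, against 23.8 RPKM, with 45.9 and 55.7 RPKM in co-culture. From the fibroblast identity list, the forkhead factor FOXF1, a lung mesenchyme regulator, was at 47.1 to 127 RPKM (median 85.6), against 222 RPKM, and the mesenchymal repressor SNAI2 was at 5.59 to 31.6 RPKM (median 14.6), against 57.2 RPKM. For SNAI2, co-culture (21.8 and 14.8 RPKM) and unfused fibroblasts (20.1 RPKM) lay within the heterokaryon range. The higher members of the regulator and receptor list were PDE4C, a cyclic AMP phosphodiesterase, at 19.4 to 59.5 RPKM (median 52.1), against 4.23 RPKM, and the oxytocin receptor OXTR at 2.60 to 9.01 RPKM, against 0.04998 RPKM. PDE4C did not exceed 2.24 RPKM in co-culture or unfused fibroblasts, while OXTR was at 16.6 RPKM in unfused fibroblasts. HOXA4, HOXB2, HOXB5, MEIS1 and TCF4 were not called.

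Of 12 tested interferon response genes, 9 were lower and none was higher, with a median log2 difference of -2.60. Of these, MX2 and CXCL10 passed the filter on low values only through the homokaryon value. The GTPase MX1, which blocks replication of RNA viruses, was at 25.5 and 7.84 RPKM at day 1, 7.71 and 8.04 RPKM at day 2, and 3.21 and 0.712 RPKM at day 3, against 243 RPKM in the homokaryon library. Co-culture (3.17 and 1.66 RPKM) and unfused fibroblasts (1.40 RPKM) were at or below most heterokaryon values, so 1 library stood far above the 9 others. MX2, its relative that acts against HIV, was at 2.21 and 2.58 RPKM at day 1, 0.661 and 0 RPKM at day 2, and 0 in both day 3 libraries, against 22.6 RPKM. IFIT1, which binds viral RNA caps, was at 0 to 12.4 RPKM (median 7.99), against 113 RPKM, and its relatives IFIT3 (3.21 to 21.8 RPKM, against 88.2 RPKM) and IFIT2 (0 to 10.9 RPKM, against 22.2 RPKM) were lower too. CXCL10, a chemokine for T cells, was at 0 to 4.40 RPKM, against 30.6 RPKM, and 0 in co-culture and unfused fibroblasts. For all of these genes the homokaryon value was the highest of the 10 libraries. GBP1, EIF2AK2 and PSMB9 made up the 9, and IRF1 (0.54), TAP1 (0.10) and SP100 (-0.71) were not called.

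Immunoproteasome subunits shape the peptides that MHC class I molecules present to T cells. The subunits PSMB9 (1.51 to 25.4 RPKM, against 25.9 RPKM) and PSMB10 (5.22 to 19.5 RPKM, against 20.01 RPKM) each had a heterokaryon library just under the homokaryon value. Of 10 complement genes 4 were lower and 1 was higher, against 14.1% and 14.8% over all tested genes. C1R, a protease of the classical pathway, was at 91.3 to 224 RPKM (median 151), against 570.3 RPKM, and the chaperone CLU was at 265 to 514 RPKM (median 372), against 779 RPKM. Both were lower in co-culture (C1R 105 and 89.0 RPKM, CLU 287 and 261 RPKM) and unfused fibroblasts (47.8 and 198 RPKM) than in the homokaryon library as well.

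Of 11 mitosis and G2 genes 9 were higher and none was lower (median 2.60), and of 15 DNA replication genes 9 were higher and 1 was lower (median 1.55). The mean level was highest at day 1 in 11 of 11 mitosis and G2 genes and in 8 of 15 DNA replication genes, against 33.8% of all tested genes. A day 1 peak was not particular to these lists. It was seen in 40 of 45 ribosomal proteins, 18 of 26 respiratory chain genes, and 14 of 24 genes each of proteasome and lysosome. Other lists had few such genes, with 1 of 10 early embryo genes and 1 of 9 epithelial genes. The limma F test over days called no gene in any list (smallest adjusted p over all genes 0.179). CKS1B, TOP2A and KIFC1 are named here for their small unadjusted F test p, so their order of days is a description. CKS1B, a cofactor of cyclin-dependent kinases, was at 301 and 189 RPKM at day 1, 72.5 and 65.8 RPKM at day 2, and 28.8 and 37.9 RPKM at day 3, against 12.9 RPKM in the homokaryon library. TOP2A, the topoisomerase of dividing cells, was at 44.1 and 30.8 RPKM at day 1, 11.8 and 15.5 RPKM at day 2, and 2.80 and 3.27 RPKM at day 3, against 0.852 RPKM. In both genes the day 3 libraries were the nearest to the homokaryon library. MKI67, the proliferation antigen Ki-67, was at 11.9 and 38.2 RPKM at day 1, 11.7 and 12.7 RPKM at day 2, and 2.36 and 2.45 RPKM at day 3, against 0.407 RPKM. The mitotic kinesin KIFC1 was at 69.6 and 61.9 RPKM at day 1, 26.0 and 22.6 RPKM at day 2, and 8.87 and 8.27 RPKM at day 3, against 3.94 RPKM. Unfused fibroblasts expressed these genes too, with CKS1B at 48.6, TOP2A at 8.54, MKI67 at 28.8 and KIFC1 at 33.8 RPKM, whereas co-culture did not exceed 32.5, 1.71, 2.77 and 5.31 RPKM. At day 3 the heterokaryon values of these 4 genes were therefore below the unfused fibroblast value.

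CCNA2, the cyclin of S phase and G2, BUB1B and MAD2L1 of the spindle checkpoint, and the centromeric histone CENPA were listed at 0 in the homokaryon library. They passed the filter on low values only through their heterokaryon values and could not have come out as lower. CENPA was at 15.3 and 13.02 RPKM at day 1, 8.13 and 7.23 RPKM at day 2, and 2.01 and 3.28 RPKM at day 3, with 0 in both co-cultures and 4.84 RPKM in unfused fibroblasts. CCNA2 was at 0.140 to 23.2 RPKM (median 3.82), with its lowest value at day 3. Among replication genes, CDC45, a helicase subunit, was at 2.07 to 31.0 RPKM (median 7.62), against 0. RPA2, which binds single-stranded DNA, was at 21.6 to 51.1 RPKM (median 29.1), against 6.95 RPKM, and the polymerase POLD1 was at 2.14 to 9.27 RPKM, against 0.0629 RPKM. PRIM2, a primase subunit, was the lower member, at 1.17 to 9.88 RPKM, against 11.6 RPKM. HMGB2, a DNA-bending chromatin protein abundant in cycling cells, was at 139.6 and 135 RPKM at day 1, 72.4 and 80.9 RPKM at day 2, and 29.7 and 23.4 RPKM at day 3, against 16.3 RPKM.

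Replication-dependent histones are a group chosen after its values were seen. Of 45 covered genes 17 were tested, 10 were lower and none was higher, with a median of -1.73. Over all tested genes 14.1% were lower and 14.8% higher. The filter on low values weighs the lone homokaryon value as much as the heterokaryon mean. Genes high only in the homokaryon library could therefore enter, and no conclusion is drawn from the count. Their levels summed to between 22.2 and 141 RPKM in heterokaryons, against 188 RPKM in the homokaryon library, 61.3 and 58.6 RPKM in co-culture and 109 RPKM in unfused fibroblasts. Messages of these histones mostly lack a polyA tail, and the genes come in near-identical copies, so their values after polyA selection are uncertain.

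**Figure D4:**
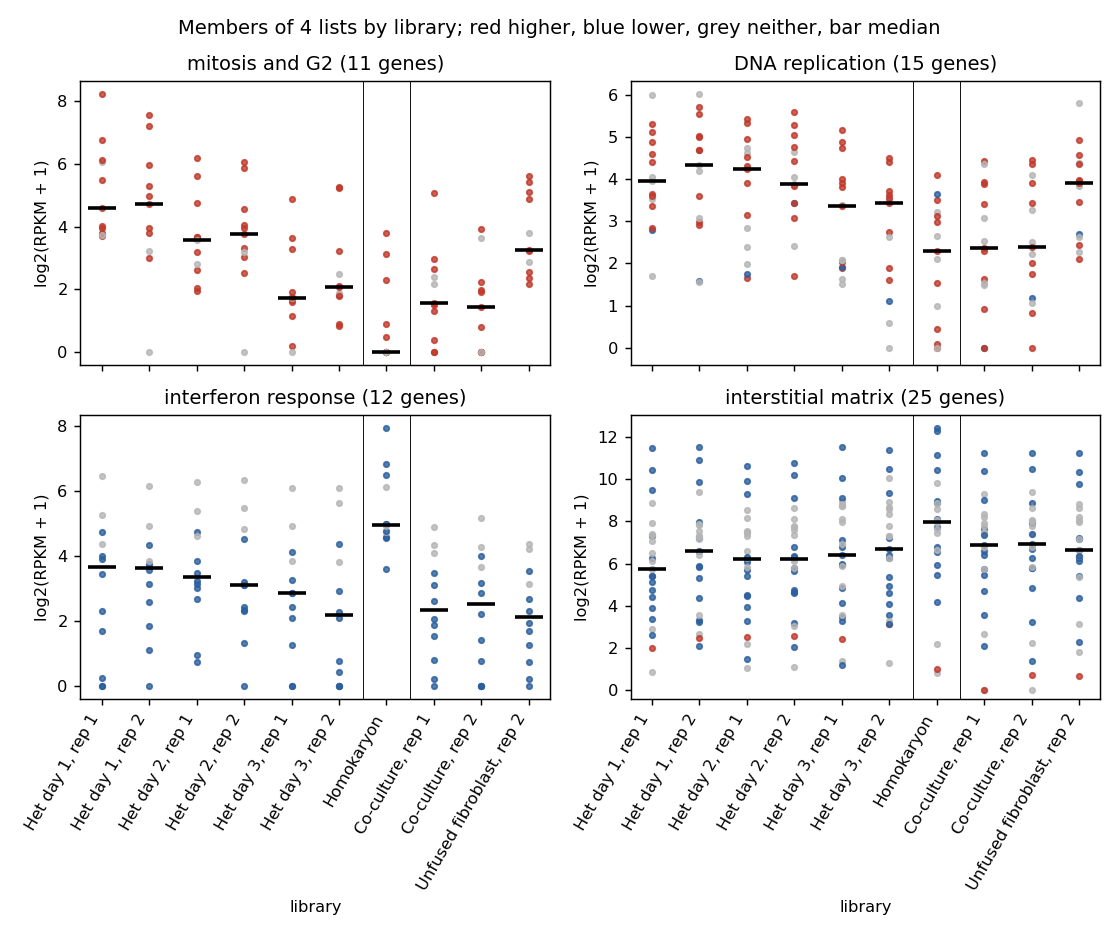
Log2(RPKM + 1) of each tested member of 4 lists in every library, with heterokaryon days at the left, then homokaryon, co-culture and unfused fibroblasts; red genes were higher, blue genes lower and grey genes not called, and black bars are medians. The median of the 11 mitosis and G2 genes is 0 in the homokaryon library and above 0 in every heterokaryon library, and the 12 interferon response genes have their highest median in the homokaryon library.

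Of 9 tested epithelial genes 4 were higher and none was lower. Besides KRT19, KRT15 was at 4.61 to 21.5 RPKM (median 12.8), against 0, and the tight junction proteins CLDN4 and CLDN7 were at 6.60 to 32.2 RPKM (median 20.7), against 0, and at 1.53 to 24.2 RPKM (median 15.7), against 0.0631 RPKM. Co-culture and unfused fibroblasts had at most 1.60 RPKM of CLDN4 and 6.54 RPKM of CLDN7. The epithelial marker KRT8 was at 46.6 and 28.2 RPKM at day 1, 0 and 233 RPKM at day 2, and 361 and 195 RPKM at day 3, against 12.5 RPKM in the homokaryon library. It was not called, because day 2 replicate 1 is listed at 0. EPCAM, a defining epithelial surface protein, was at 0 to 3.33 RPKM, against 1.03 RPKM. Of 15 muscle contractile genes 2 were higher, DES and CRIP1, a share near the 14.8% over all tested genes, and ACTA2 (0.11), TAGLN (0.03) and CNN1 (-0.10) were not called.

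Genes of the early embryo were listed at 0 in the homokaryon library and appeared in all 6 heterokaryon libraries for 3 of 10 tested members. Over all tested genes 14.8% were higher. These 3 passed the filter on low values only through their heterokaryon values and could not have been lower. No conclusion is drawn from the count. KHDC1L was at 8.21 and 0.854 RPKM at day 1, 138 and 125 RPKM at day 2, and 15.1 and 107 RPKM at day 3. TRIM43B was at 1.40 and 5.16 RPKM at day 1, 37.6 and 45.3 RPKM at day 2, and 8.91 and 41.4 RPKM at day 3. RFPL4B was at 2.45 and 5.66 RPKM at day 1, 24.1 and 26.1 RPKM at day 2, and 5.39 and 14.9 RPKM at day 3. Day 2 was the highest day for all 3, the day 3 replicates differed several-fold, and no library without fusion to a stem cell exceeded 0.722 RPKM. These genes belong to families with near-identical copies, so the assignment to a single member is uncertain. Of 30 pluripotency genes 8 were covered and 2 were tested. KLF5, a factor of stem cells and epithelia, was at 4.38 to 10.6 RPKM (median 6.87), against 2.62 RPKM in the homokaryon library, and fell short of 2-fold after quantile normalization (0.92). CRIPTO, a NODAL co-receptor, was at 0 in both day 1 libraries, 5.89 and 9.49 RPKM at day 2, and 6.26 and 0.752 RPKM at day 3, against 0, and so was not called. LIN28B was at 0 in both day 1 libraries and at 0.1005 to 0.998 RPKM in the later 4, against 0. DPPA5, LEFTY2 and UTF1 were above 0 in 1 heterokaryon library each, and FGF4 and SOX2 were listed in none of the 7 libraries.

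Of 18 secreted growth factor genes 5 were higher and 5 lower, against 14.8% and 14.1% over all tested genes. AREG, a ligand of the EGF receptor, was at 3.39 to 27.4 RPKM (median 20.6), against 0 in the homokaryon library, with 232 and 297 RPKM in co-culture and 3.23 RPKM in unfused fibroblasts. HBEGF, another such ligand, was at 12.2 to 49.5 RPKM (median 20.98), against 2.43 RPKM, and the placental growth factor PGF was at 3.19 to 35.9 RPKM (median 13.02), against 0. HGF, the ligand of MET, was at 11.4 to 42.6 RPKM (median 22.8), against 89.5 RPKM, and co-culture was higher than both at 127 and 198 RPKM. In the TGF beta and BMP list 2 of 14 genes were higher, near the 14.8% over all tested genes, and 5 were lower, against 14.1%. The receptor TGFBR2 was at 3.41 and 7.46 RPKM at day 1, 14.5 and 19.8 RPKM at day 2, and 21.03 and 10.9 RPKM at day 3, against 59.8 RPKM, and the co-receptor ENG was at 29.6 to 57.0 RPKM (median 34.1), against 106 RPKM. The matricellular protein CCN1 was at 209.8 to 808 RPKM (median 257), against 90.9 RPKM. TGFB1, TGFB2, CCN2 and INHBA were not called.

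Of 17 chemokine and NFkB target genes 3 were higher and 3 lower, and of 11 IL6 JAK STAT genes 2 were higher and 1 lower, shares near those over all tested genes. CCL2, a monocyte chemokine, was at 9.56 and 15.03 RPKM at day 1, 52.2 and 67.6 RPKM at day 2, and 30.5 and 44.4 RPKM at day 3, against 185 RPKM in the homokaryon library. Co-culture (5.44 and 7.56 RPKM) and unfused fibroblasts (8.11 RPKM) were below every heterokaryon value. IL1R1, the interleukin 1 receptor, was at 3.71 to 28.5 RPKM (median 16.7), against 83.3 RPKM, while its ligand IL1B was at 43.6 to 126 RPKM (median 81.7), against 11.5 RPKM. IL1B was near the heterokaryon level in co-culture (51.2 and 47.0 RPKM) and listed at 0 in unfused fibroblasts. PTX3, a secreted pentraxin, was at 6.21 and 5.82 RPKM at day 1, 50.2 and 31.4 RPKM at day 2, and 51.1 and 44.9 RPKM at day 3, against 66.5 RPKM. CXCL8, IL6 and ICAM1 were among the genes not called (0.23, 0.20 and -0.92). LIF, which sustains mouse stem cells, was at 14.3 to 33.0 RPKM (median 24.0), against 56.9 RPKM. Co-culture had 91.1 and 102 RPKM of LIF and unfused fibroblasts 7.36 RPKM. The kinase PIM1 was at 30.3 to 158 RPKM (median 50.5), against 15.5 RPKM in the homokaryon library.

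Of 9 tested immediate early genes 2 were higher, 1 was lower and 6 were not called, with a median log2 difference of 0.22. Over all tested genes 14.8% were higher and 14.1% lower. ATF3, a transcription factor of the stress response, was at 55.6 and 73.9 RPKM at day 1, 136 in both day 2 libraries, and 99.7 and 100.5 RPKM at day 3, against 12.5 RPKM in the homokaryon library. Co-culture (9.30 and 16.5 RPKM) was near the homokaryon level and unfused fibroblasts had 1.29 RPKM. MYC was at 18.9 to 60.8 RPKM (median 52.0), against 7.70 RPKM, and JUNB was at 2.67 to 19.8 RPKM (median 6.90), against 23.8 RPKM. The growth arrest gene GADD45A, from outside that list, was at 67.9 to 289 RPKM (median 127), against 18.5 RPKM. In the heat shock list 4 of 8 genes were higher and 1 was lower. Among the higher ones FKBP4, an HSP90 co-chaperone, was at 54.8 to 105 RPKM (median 84.5), against 18.7 RPKM. HSPB2 was at 13.3 to 30.6 RPKM (median 25.1), against 7.07 RPKM. HSPB1, DNAJA1 and HSPE1 were not called.

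Ribosomal proteins (1 of 45 called) and proteasome subunits (0 of 24) gave few calls, against 28.9% of all tested genes. The 45 tested ribosomal proteins had a median log2 difference of 0.44 and the 24 proteasome subunits 0.25. Most counts of the lists that follow were near or under the shares over all tested genes, 14.8% higher and 14.1% lower. The genes named from these lists are single examples. Of 26 respiratory chain and carrier genes 3 were higher, led by SLC25A5, an ADP/ATP carrier, at 222 to 739.9 RPKM (median 464), against 51.1 RPKM in the homokaryon library, 109.9 and 111 RPKM in co-culture and 115 RPKM in unfused fibroblasts. All 6 heterokaryon libraries were above every other library for SLC25A5. Of 16 glycolysis and hypoxia genes 3 were higher: PFKP, PGK1 and ENO2, the last of them at 28.7 to 142 RPKM (median 65.5), against 10.9 RPKM. Co-culture (99.4 and 98.0 RPKM) lay within the heterokaryon range for ENO2. PFKP was higher in co-culture (121 and 138 RPKM) and unfused fibroblasts (120 RPKM) than in any heterokaryon library (at most 83.6 RPKM). Of 24 lysosomal genes 3 were higher and 5 were lower, among them the fucosidase FUCA1 at 3.62 to 51.4 RPKM (median 23.3), against 2.03 RPKM, and the protective protein CTSA at 87.6 to 192 RPKM (median 120.4), against 306 RPKM. Of 19 oxidative defence and iron genes 3 were higher and 4 lower. GPX3, a secreted glutathione peroxidase, was at 67.1 to 174 RPKM (median 102), against 11.2 RPKM, while GPX8 of the endoplasmic reticulum was at 0.164 to 10.3 RPKM (median 4.93), against 39.3 RPKM. Cholesterol synthesis had 1 higher gene, TM7SF2, and 1 lower gene, MVK, of 10. Of 13 chromatin genes 2 were higher and 2 lower. The maintenance methyltransferase DNMT1 was at 23.3 to 55.7 RPKM (median 33.9), against 13.4 RPKM (log2 difference 0.72, short of 2-fold, from the highest transcript alone). The SWI/SNF subunit SMARCD3 was at 8.42 to 13.6 RPKM (median 10.04), against 47.6 RPKM.

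The distance to the homokaryon library was followed over the 3 days. Higher genes had a median log2 difference of 1.84 at day 1, 1.86 at day 2 and 1.59 at day 3, and lower genes of -1.87, -1.57 and -1.49. Day 3 was the nearest day to the homokaryon level in 161 of 305 higher genes (52.8%), against 40.4% of all tested genes. In lower genes it was not: day 3 was nearest in 95 of 290 (32.8%). Day 2 was nearest in 121 of them (41.7%), against 30.7% of all tested genes. Day 1 was the farthest day in 179 of 290 lower genes (61.7%), against 48.1% of all tested genes. In higher genes day 1 was farthest in 133 of 305 (43.6%), below that share. The higher and lower genes were themselves picked from these day values. The day 1 libraries also had the most compared genes at 0 (2512 and 2625, against 1853 to 2250 at day 2 and day 3). The part of these zeros in the order of days was not tested. The limma F test over days, which asks whether the difference from the homokaryon level is the same on the 3 days, called 0 of 2062 genes (0.00%). The smallest adjusted p was 0.179, and 288 genes had an unadjusted p under 0.05. The 5 genes with the smallest F test p among those past the 2-fold rule were HMGB2, CKS1B, PTX3, KIFC1 and TOP2A.

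Co-culture and unfused fibroblasts share no library with this comparison and show how far the same genes differ with mouse cells present but no fusion. Of the 305 higher genes, 34 (11.1%) had both co-cultures above unfused fibroblast replicate 2 with a mean difference of at least 2-fold, and 40 (13.1%) had both below it by as much. Of the 290 lower genes, 42 (14.5%) were higher in co-culture and 31 (10.7%) were lower. Over all tested genes the shares were 9.70% and 8.002%. The median log2 difference of co-culture from unfused fibroblasts was -0.05 for the higher genes, 0.03 for the lower genes and -0.02 for all tested genes.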

How the data were processed

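PolyA RNA libraries of 6 heterokaryons and 1 homokaryon were compared; 2 co-cultures and unfused fibroblast replicate 2 served as context. The tables of unfused fibroblast replicates 1 and 3 were not used. Values as deposited by the authors are taken as RPKM per transcript; no label or header names the unit, and RPKM, FPKM and TPM cannot be told apart. The submitters' processing notes name hg19 and mm10; no aligner is given in the sources used here. For low values, at most 32.3% of ratios to the homokaryon library fell on a grid of whole-number ratios (median over grids 11.2% to 12.6%), so reads were not recovered and depth is unknown.

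Each table holds 10000 distinct values, and its end is the last accession that adds one. Coding transcripts before the ends were joined to genes with RefSeq, 130 accessions with an older table, and summed. Of 4825 genes covered in all 7 tables, 153 within 2 numbers of an unnamed accession were set aside. Genes were tested where the average of the heterokaryon mean and the homokaryon value reached 1. No test is behind the 2-fold rule, because 6 libraries against 1 allow a smallest one-sided exact permutation p of 0.143. Differences are on the log2(value + 1) scale, which understates those of low genes. limma 3.58.1 in R 4.3.3 was fitted with 4 groups, eBayes with trend and 3 residual degrees of freedom, and was tested on simulated data. Nothing says that replicates were separate cultures, so the spread behind each p-value is that between these samples and may be technical.

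The genes named are the 12 higher and 12 lower with the widest gap in the upper 50 percent of abundance, up to 4 genes with the widest gap per described list, all covered pluripotency genes, and the 5 with the smallest p over days among genes past the 2-fold rule; a few of them are not reported here. Further list members are named to account for the lists and were chosen after their values were seen. The comparison and the 35 lists were chosen with earlier results of these data known.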

Additional observations from a re-analysis of the deposited data

Results flagged for a closer look

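Among 113 named genes examined in the 6 heterokaryon libraries, 18 had 1 library far from the other 5, with a gap above Dixon's critical value for 6 values. Chance flags about 5 in 100 such groups. The 6 libraries span 3 days.

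Day 1 replicate 1 was the high library for MX1 (25.5 RPKM, others 0.712 to 8.04), GADD45A (289 RPKM, others 67.9 to 146), SDHB, a respiratory chain subunit (138 RPKM, others 39.6 to 73.8), and LEFTY2 (0.689 RPKM, others 0). Day 1 replicate 2 was high for CDC45 (31.0 RPKM, others 2.07 to 11.1), MKI67 (38.2 RPKM, others 2.36 to 12.7), COL5A2 (146 RPKM, others 62.0 to 78.8) and H4C8 (1.54 RPKM, others 0). At day 2, replicate 1 was high for TEK, the angiopoietin receptor (3.49 RPKM, others 1.03 to 1.70), and DPPA5 (1.79 RPKM, others 0), and replicate 2 for the complement gene C2 (3.12 RPKM, others 0 to 0.185).

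At day 3, replicate 1 was high for ENG (57.0 RPKM, others 29.6 to 37.7), S100A3 (39.0 RPKM, others 10.1 to 19.1) and ANGPT1 (0.385 RPKM, others 0), and low for AREG (3.39 RPKM, others 19.3 to 27.4). Day 3 replicate 2 was high for CCN1 (808 RPKM, others 209.8 to 339.8), PIM1 (158 RPKM, others 30.3 to 52.3) and UTF1 (0.215 RPKM, others 0). COL5A2, CDC45, MKI67, MX1, GADD45A, CCN1, PIM1, ENG and AREG met the 2-fold rule with the flagged value included. By that rule their heterokaryon values cannot overlap the homokaryon value.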

How the results depend on the processing

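The counts of the 2-fold rule moved with its settings. With a pseudocount of 5 there were 174 higher and 146 lower genes, at 4-fold 116 and 82, and with each heterokaryon library at least 2-fold away 130 and 89. With genes above 0 in all 7 libraries 170 genes were lower, and with a filter at 5 RPKM 184. With only genes of 1 coding transcript, an alternative chosen after seeing the data, 194 were higher. Quantile normalization gave 241 higher and 364 lower genes (39.8% higher, against 51.3% as deposited). It moved the complement median to -1.43 and the cholesterol synthesis median to 0.0601, and turned those of IL6 JAK STAT (-0.0813) and TGF beta and BMP (-0.0613). By limma 81 genes were higher with a pseudocount of 0.1, 65 with a filter at 5 and 58 with genes above 0 in all 7 libraries. Lower genes numbered 42 with a pseudocount of 5, 41 after quantile normalization and 10 without trend. Leaving out 1 heterokaryon library gave 0 to 55 higher and 0 to 46 lower genes. The cause was not tested. With the replicate number as a block 11 genes were higher and 2 lower. Same-numbered libraries deviated together at r = -0.09, 0.05 and -0.10. These values show no large shift shared by number, and they cannot tell whether the numbers pair the samples. The test over days called 0 genes under every alternative run. Among the named genes no direction reversed. The 2-fold call ended for 11 of them with a pseudocount of 5, 5 after quantile normalization, 3 with the highest coding transcript, 2 after upper quartile scaling and at most 4 with 1 library left out. Among those printed, PSMB9 (-0.90), PSMB10 (-0.85), POLD1 (0.90), KLF5 (0.68) and PGK1 (0.97) were lost with a pseudocount of 5, and PFKP (0.92) with the highest coding transcript. Read depth is unknown, which limits every statement on a 0. The planned promoter motif shares were not run, and no promoter sequences were used here.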

Other observations

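Several genes outside the lists passed the limma test and are named here after their values were seen. FLNC, an actin crosslinking filamin, had a log2 difference of 2.19 (adjusted p = 0.0461). The integrin chain ITGA3, a laminin receptor subunit, had 2.34 (adjusted p = 0.0229), and COL7A1, the anchoring fibril collagen of epithelial basement membranes, had 1.72 (adjusted p = 0.0461). ADA, a purine salvage enzyme that acts before PNP, had 2.86 (adjusted p = 0.0438), and FABP5, a fatty acid binding protein, was listed at 0 in the homokaryon library and passed with adjusted p = 0.0207. On the lower side, COL15A1, a basement membrane zone collagen, had -3.53 (adjusted p = 0.0419), and QSOX1, a secreted disulphide oxidase, had -1.70 (adjusted p = 0.0385). With 1 heterokaryon library left out, FLNC and COL15A1 passed in 0 of 6 fits (largest adjusted p 0.152 and 0.151), COL7A1 in 1, and ITGA3, ADA, FABP5 and QSOX1 in 2. Without day 2 replicate 1 or day 2 replicate 2 no gene passed (smallest adjusted p 0.102 and 0.0965).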
